A study of Mus musculus with 15 samples.

Results

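The 10 genes described here belong to the mammalian circadian clock: Clock, the period genes Per1, Per2 and Per3, the cryptochromes Cry1 and Cry2, the nuclear receptors Nr1d1 and Nr1d2 (REV-ERBα and REV-ERBβ), and the output factors Dbp and Tef. They were taken by name from a table of 44827 genes, and all 10 were high enough to be among the 13927 genes tested. The choice was made with earlier results of these data known. Counts and medians over the 10 are therefore descriptions when set beside those of all tested genes. In the clock, CLOCK and its partner ARNTL (BMAL1) bind E-boxes and switch on the Per and Cry genes, whose proteins accumulate and repress CLOCK and ARNTL in turn. In a second loop NR1D1 and NR1D2, also E-box targets, repress Arntl at ROR elements, and the PAR bZIP activators DBP and TEF pass the rhythm on through D-boxes. In bone marrow the clock is known for its daily control of blood stem cell release and progenitor proliferation. The period genes also respond directly to cAMP and glucocorticoid signals.

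RNA was sequenced from bone marrow LSK cells (sorted as lineage negative, Sca1 positive and cKit positive), a fraction rich in blood stem cells and early progenitors, from C57BL/6 mice carrying conditional alleles restricted to blood-forming tissue. The driver of the deletion is not named in the labels. There were 5 groups of 3 libraries: animals with Tet2-/- and Nras(G12D) that had leukemia (leukemic double mutant), animals with both alleles and no leukemia (double mutant), Tet2-/- alone, Nras(G12D) alone, and wild type (WT). Tet2 encodes an enzyme that oxidises methylated cytosine, and Nras(G12D) encodes a RAS protein held in its active form. The series' design text gives an age of 6 months, for animals whose methylome was measured. The leukemic libraries are also the ones described with the letters BMT, whose meaning was not established, so BMT and leukemia cannot be told apart. No label gives the hour at which marrow was taken, so group differences in genes that cycle daily cannot be told apart from differences in hour. Nor does any label state whether a group's libraries are from different animals. The p-values therefore reflect library-to-library spread, part of which may be technical.

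Total counts per library ran from 22733189 to 43562909. The transcripts of the sort markers were present in every group: Kit averaged 499 CPM (a count relative to the library size) in the leukemic double mutant, 947 in the double mutant, 2146 in Tet2-/-, 1020 in Nras(G12D) and 1240 in WT, and Ly6a, which encodes Sca1, averaged between 81 and 147 CPM. The 4 erythroid markers (Klf1, Epor, Car1, Hbb-bt) summed to 388 to 3803 CPM in the leukemic libraries, against 40.8 to 153 CPM in the double mutant and 110 to 186 CPM in WT. The 8 LSK and stem cell markers were Kit, Ly6a, Cd34, Flt3, Slamf1, Procr, Mecom and Hlf, of which Kit and Cd34 had the highest means in every group. They summed to 676 to 2660 CPM in the leukemic libraries, against 2635 to 3268 CPM in the double mutant and 3321 to 3773 CPM in WT. Transcripts of the male-specific gene Ddx3y exceeded 1 CPM in leukemic library 1, double mutant library 1, Tet2-/- libraries 1 and 2 and Nras(G12D) library 2, so all 4 mutant groups mixed libraries with and without it, while WT had none with it. In such bulk libraries fewer cells of a type and less RNA per cell cannot be told apart.

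Promoter windows of 300 bases (250 before to 50 after a transcription start) were available for 9 of the 10 genes from RefSeq on GRCm38.p6, 13 windows in all. Per2 had no window and was not searched. They were searched on both strands for the E-box CACGTG, the E-box variant CACGTT, the D-box TTATGTAA, the ROR element TAGGTCA and the cAMP response element TGACGTCA. A match is a description of the letters and not a bound site. 4 windows that hold such letters are printed 5′ to 3′ on the gene's strand, with the matches in capitals, because their genes are called in the comparisons described further on. The Per3 window lies at chr4:151044616-151044915 on the minus strand and its capitals are D-boxes, the element of DBP and TEF. The Cry1 window lies at chr10:85185005-85185304 on the minus strand, and its capitals are an E-box variant (read here as AACGTG) followed by an E-box. The Tef window lies at chr15:81802423-81802722 on the plus strand with an E-box, and the Cry2 window at chr2:92434020-92434319 on the minus strand with an E-box variant, also read as AACGTG.
Per3: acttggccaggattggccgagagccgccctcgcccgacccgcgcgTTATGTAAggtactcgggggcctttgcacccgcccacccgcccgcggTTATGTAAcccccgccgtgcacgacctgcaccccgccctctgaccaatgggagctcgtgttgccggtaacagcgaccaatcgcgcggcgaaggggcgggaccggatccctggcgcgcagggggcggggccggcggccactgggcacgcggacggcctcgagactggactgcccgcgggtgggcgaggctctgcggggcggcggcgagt
Cry1: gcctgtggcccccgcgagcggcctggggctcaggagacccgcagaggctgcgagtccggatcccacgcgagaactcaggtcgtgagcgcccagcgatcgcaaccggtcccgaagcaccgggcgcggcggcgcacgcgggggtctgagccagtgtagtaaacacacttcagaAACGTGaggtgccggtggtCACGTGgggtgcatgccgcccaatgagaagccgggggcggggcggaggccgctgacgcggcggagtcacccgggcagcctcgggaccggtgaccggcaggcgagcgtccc
Tef: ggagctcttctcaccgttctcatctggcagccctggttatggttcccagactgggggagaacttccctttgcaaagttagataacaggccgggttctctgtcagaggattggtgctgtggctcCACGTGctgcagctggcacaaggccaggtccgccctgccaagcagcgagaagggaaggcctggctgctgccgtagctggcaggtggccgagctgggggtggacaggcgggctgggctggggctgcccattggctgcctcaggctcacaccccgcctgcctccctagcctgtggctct
Cry2: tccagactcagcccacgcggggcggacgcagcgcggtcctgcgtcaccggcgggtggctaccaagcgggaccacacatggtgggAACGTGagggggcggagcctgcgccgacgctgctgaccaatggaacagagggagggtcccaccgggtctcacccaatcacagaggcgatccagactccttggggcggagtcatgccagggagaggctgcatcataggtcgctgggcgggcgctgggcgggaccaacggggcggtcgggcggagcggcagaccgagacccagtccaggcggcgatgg
Per3 held 2 copies of the D-box, at 205 and 158 bases before its start. Of 32851 promoter windows of the same length, 0.938% held at least 1 D-box and 7, or 0.0213%, held 2 or more. The E-box CACGTG, found in 7.15% of all windows, was present in those of Cry1, Per1 and Tef, and the variant, found in 4.68%, in those of Cry1, Cry2 and Nr1d1. The ROR element, found in 2.61% of windows, and the cAMP response element, found in 1.79%, matched 0 of the 13 windows.

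On GRCm38, by the GENCODE annotation, Per3 spans chr4:151003652-151044665 on the minus strand, wholly within the span of Camta1 on the same strand, and Cry1 spans chr10:85131700-85185064 on the minus strand. Cry2 lies at chr2:92403646-92434043 and Nr1d2 at chr14:18204054-18239127, both on the minus strand, while Dbp lies at chr7:45705088-45710203 and Tef at chr15:81802421-81826863, both on the plus strand. Per1 lies at chr11:69095217-69109960 on the plus strand, Per2 at chr1:91415982-91459324, Nr1d1 at chr11:98767932-98775333 and Clock at chr5:76209868-76304792, all 3 on the minus strand. Nr1d1 shares 1075 bases with Thra on the opposite strand, and Dbp shares 737 bases with Sphk2. Cry2 and Tef share bases with antisense genes that stayed at or below 0.754 CPM. These overlaps are of whole gene spans, introns included, and the overlap of exons was not measured. Reads from such shared bases cannot be assigned with certainty, because the use of strand in counting was not stated.

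The period genes encode the repressors that pair with the cryptochromes. Per3 stood at 17.1, 11.1 and 10.7 CPM in the leukemic double mutant and at 21, 38.8 and 37.5 CPM in the double mutant. It stood at 9.81, 11.3 and 9.92 CPM in Tet2-/-, at 22.4, 16.2 and 19 CPM in Nras(G12D) and at 17.3, 19.3 and 15.6 CPM in WT. The Tet2-/- libraries lay below every WT library, and the double mutant libraries lay above every leukemic, Tet2-/- and WT library, with libraries 2 and 3 nearly equal and library 1 much closer to WT. Per2 stood at 16.9, 35.2 and 25 CPM in the leukemic double mutant, 24.8, 41 and 30.7 CPM in the double mutant, 6.07, 19.2 and 8.26 CPM in Tet2-/-, 14.2, 33.9 and 17.3 CPM in Nras(G12D) and 20.9, 27.2 and 27.2 CPM in WT. All Tet2-/- libraries were below WT and below the double mutant, although Tet2-/- library 2 was well above the other two, and within all 4 mutant groups library 2 was the highest. Per1 stood at 59, 29.7 and 16.2 CPM in the leukemic double mutant, 17.3, 17.2 and 13 CPM in the double mutant, 18.3, 15.7 and 19.1 CPM in Tet2-/-, 19.1, 10.2 and 20.6 CPM in Nras(G12D) and 24.2, 23.4 and 21.5 CPM in WT. The non-leukemic mutant libraries were all below WT, and the leukemic libraries were spread from below to far above it.

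Cry1 and Cry2 encode the cryptochromes, relatives of light-repair enzymes that block CLOCK and ARNTL. Cry1 stood at 21, 10.8 and 25.9 CPM in the leukemic double mutant, 12.1, 58.1 and 47.8 CPM in the double mutant, 4.8, 5.56 and 7.27 CPM in Tet2-/-, 20.3, 20.1 and 11.4 CPM in Nras(G12D) and 8.57, 12.7 and 6.7 CPM in WT. Double mutant library 1 lay within reach of WT while libraries 2 and 3 were the highest of all 15, and all Tet2-/- libraries lay below every double mutant, leukemic and Nras(G12D) library. Cry2 stood at 45.7, 59.8 and 47.4 CPM in the leukemic double mutant, 21.6, 38.7 and 28.3 CPM in the double mutant, 6.12, 12.5 and 6.09 CPM in Tet2-/-, 17.2, 45.2 and 11 CPM in Nras(G12D) and 11.5, 25.9 and 22.7 CPM in WT. The leukemic libraries were above every double mutant, Tet2-/- and WT library, and Nras(G12D) library 2 reached into their neighbourhood.

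The second loop has 2 nuclear receptors, which repress Arntl. By limma's F test over the 5 groups Nr1d2 differed (adjusted p = 0.0359) and Nr1d1 did not pass (0.313). Nr1d2 stood at 45.3, 21.1 and 31.8 CPM in the leukemic double mutant, 25.4, 62.2 and 48.7 CPM in the double mutant, 11.9, 15.3 and 13 CPM in Tet2-/-, 24.6, 55.2 and 18.6 CPM in Nras(G12D) and 17.5, 26.8 and 21.8 CPM in WT. Its Tet2-/- libraries were the lowest of all groups with no overlap. Nr1d1 stood at 3.53, 5.83 and 10.1 CPM in the leukemic double mutant, 5.78, 7.87 and 7.62 CPM in the double mutant, 9.09, 10.6 and 8.46 CPM in Tet2-/-, 5.91, 15.9 and 10.4 CPM in Nras(G12D) and 11.8, 8.96 and 9.52 CPM in WT. Here the double mutant libraries lay below all Tet2-/- and all WT libraries, whereas for Nr1d2 they lay above all Tet2-/- libraries and overlapped WT.

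Dbp, whose product drives D-box genes and which is a direct CLOCK target with strong daily swings in other tissues, was low in all groups. It stood at 1.13, 1.38 and 2.53 CPM in the leukemic double mutant, 4.32, 9.8 and 11.9 CPM in the double mutant, 2.76, 2.9 and 2.87 CPM in Tet2-/-, 3.58, 5.06 and 2.54 CPM in Nras(G12D) and 2.4, 3.44 and 3.08 CPM in WT. These values rest on 33, 42 and 81 counts in the leukemic libraries, 125, 325 and 340 counts in the double mutant, and 63, 88 and 84 counts in WT. All double mutant libraries were above all leukemic, Tet2-/- and WT libraries. Its relative Tef stood at 45.8, 34.6 and 32.7 CPM in the leukemic double mutant, 38.1, 68.2 and 61.7 CPM in the double mutant, 26, 32.2 and 28.9 CPM in Tet2-/-, 36.4, 59.6 and 31.7 CPM in Nras(G12D) and 28.4, 36.2 and 35.3 CPM in WT. The double mutant again lay above all Tet2-/- and WT libraries, by a narrow margin for library 1.

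Clock, the activator subunit, was nearly flat: 14.3, 12.6 and 15.1 CPM in the leukemic double mutant, 14.3, 19.1 and 15.1 CPM in the double mutant, 17.5, 13.7 and 15.9 CPM in Tet2-/-, 9.08, 13.6 and 13.1 CPM in Nras(G12D) and 13.9, 16 and 14.8 CPM in WT. Its group means ran from 11.9 ± 2.48 CPM in Nras(G12D) to 16.2 ± 2.6 CPM in the double mutant (SD, n = 3 each). Its partner Arntl, cited for context, stood at 13.6, 12.9 and 16.8 CPM in the leukemic double mutant, 16.8, 20.2 and 16.6 CPM in the double mutant, 31.5, 15.7 and 24.8 CPM in Tet2-/-, 19.2, 22.6 and 24.4 CPM in Nras(G12D) and 57, 36.5 and 54.1 CPM in WT. All mutant libraries lay below all WT libraries for Arntl.

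**Figure D1:**
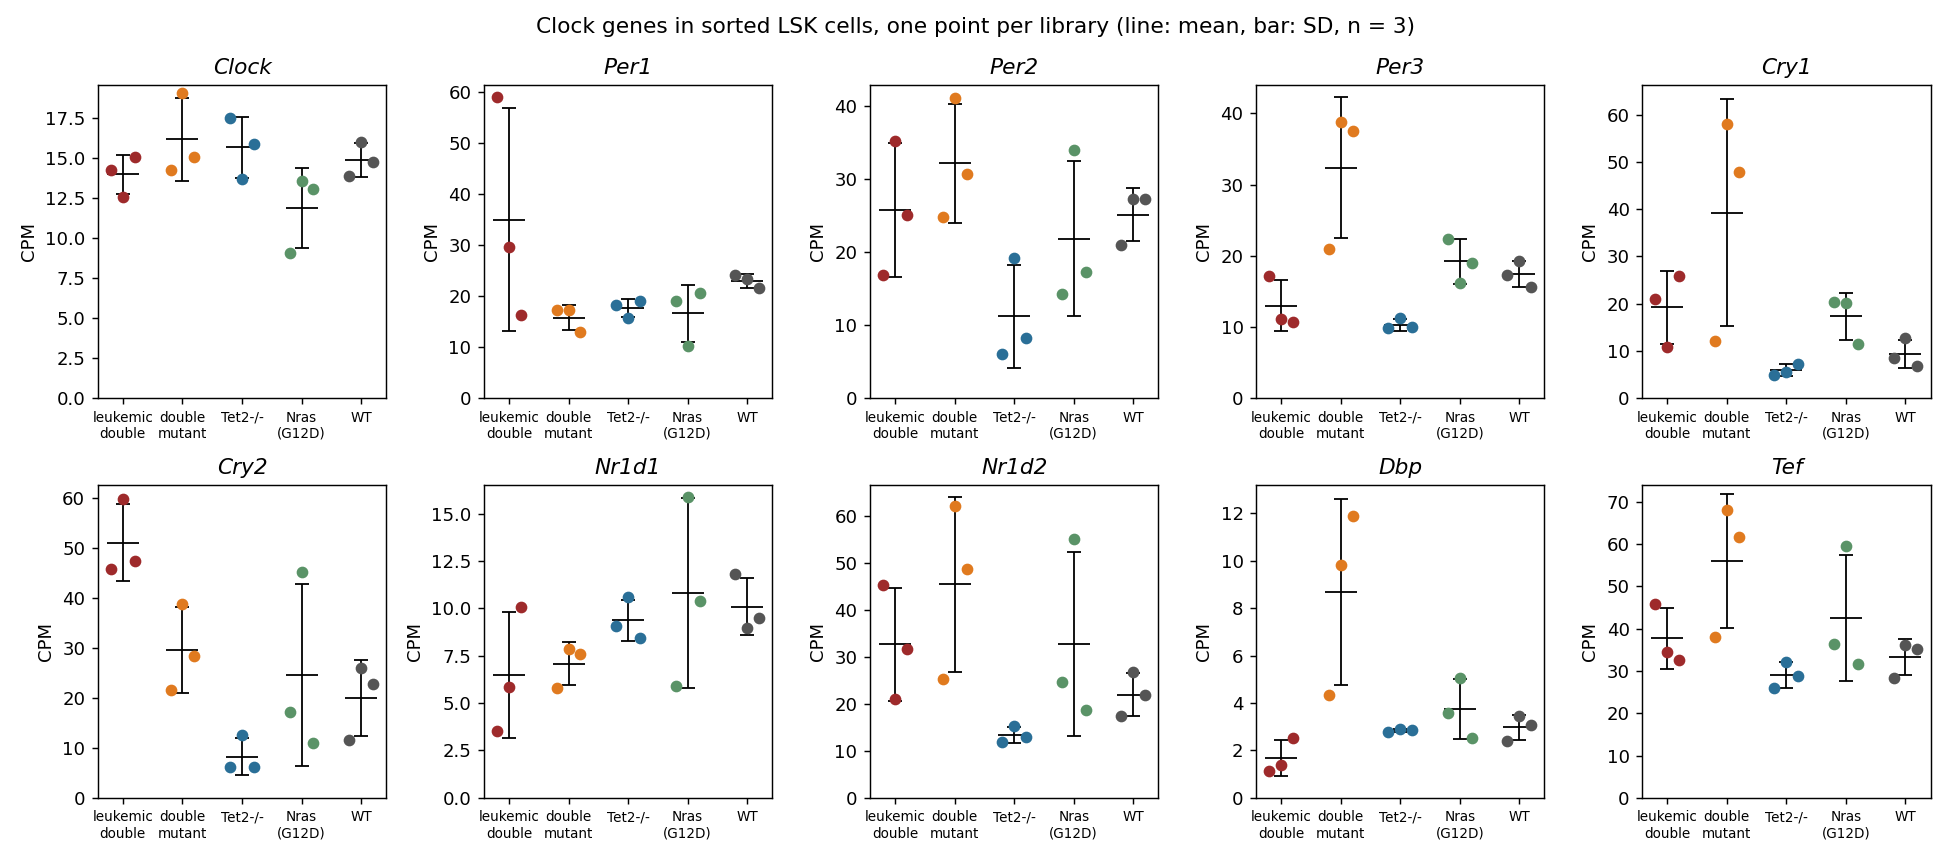
CPM of each of the 10 genes (y axis, linear from 0) in the 3 libraries of each group (x axis, 1 point per library), with the group mean as a line and the SD as a bar. Per3, Cry1, Nr1d2, Dbp and Tef have 2 high points and 1 lower point in the double mutant, Cry2 is highest in the leukemic double mutant, and Clock is level across the groups.

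Levels of different genes were set side by side per kilobase of exon, counting every base in any annotated exon of a gene. On this scale 6 of the genes lay close together in WT. Their closeness and order depend on the length chosen. Tef has 7867 such bases against a transcript length of 4403, Cry2 6320 against 3976, and Per2 5856 against 5833. Levels by transcript length are not given here. Per2 had a level of 4.28 ± 0.622 CPM per kb, Tef 4.23 ± 0.544, Per1 4.09 ± 0.242, Nr1d2 4.07 ± 0.861 and Cry2 3.17 ± 1.2 CPM per kb (SD, n = 3), with Nr1d1 between 2.91 and 3.83, neighbours that did not separate beyond their spread. Cry1 followed at 2.79 ± 0.915, Per3 at 1.81 ± 0.192, Clock at 1.08 ± 0.0795 and Dbp at 0.993 ± 0.177 CPM per kb, where Cry1 overlapped Cry2 and Clock overlapped Dbp. Arntl averaged 6.54 ± 1.48 CPM per kb, a higher mean than any of the 10 on this scale.

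Over the 5 groups, 6 of the 10 genes differed by limma's F test with Benjamini-Hochberg adjustment over all tested genes, against 44% of all tested genes. They were Per3 (adjusted p = 0.0053), Cry2 (0.00649), Dbp (0.00833), Cry1 (0.0124), Nr1d2 (0.0359) and Per2 (0.039). Tef (0.0982), Per1 (0.165), Nr1d1 (0.313) and Clock (0.418) did not pass. Per3, Cry1, Cry2 and Dbp passed under all alternatives. Per2 and Nr1d2 were lost, leaving 4, with quantile normalization, with median centring, and without double mutant library 2 or 3, Tet2-/- library 1 or 3, or WT library 1 or 3.

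The double mutant was set against Tet2-/- to ask what mutant Nras adds when Tet2 is already lost, and it is here that the clock genes differed most. Of the 10 genes, 7 were called higher in the double mutant and 0 lower, where 28.7% of all tested genes were called, 20.1% higher and 8.57% lower. The median log2 change over the 10 genes was 1.54, against 0.00 over all 13927 tested genes. Because the 10 were chosen with earlier results of these data known, this contrast describes them and does not test them as a set. The 7 span the negative limb (Per2, Per3, Cry1, Cry2), the second loop (Nr1d2) and the output (Dbp, Tef), while Clock, Per1 and Nr1d1 were not called. For each of the 7, every double mutant library exceeded every Tet2-/- library, a pattern shown by 26% of all tested genes. Nr1d1 was the reverse in all libraries, averaging 7.09 ± 1.14 CPM in the double mutant and 9.37 ± 1.08 CPM in Tet2-/- (SD, n = 3), and did not pass the test. Thra, which shares bases with Nr1d1 on the opposite strand, was called higher here, by 1.22 ± 0.33 (limma adjusted p = 0.0158).

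Cry1 rose most, averaging 39.3 ± 24.1 CPM in the double mutant and 5.88 ± 1.27 CPM in Tet2-/-, a log2 change of 2.48 ± 0.52 or 5.56-fold (limma, estimate ± standard error, adjusted p = 0.00562). Cry2 rose by 1.89 ± 0.47 (adjusted p = 0.0119), with 29.5 ± 8.6 CPM in the double mutant and 8.24 ± 3.69 CPM in Tet2-/-. Per3 had the smallest p of the 10, with 32.4 ± 9.96 CPM in the double mutant and 10.3 ± 0.825 CPM in Tet2-/-, a change of 1.60 ± 0.28 (limma adjusted p = 0.00472). Per2 and Nr1d2 each rose by 1.67 on the log2 scale (standard errors 0.43 and 0.42, limma adjusted p = 0.0133 and 0.0117), Dbp by 1.48 ± 0.42 (0.02) and Tef by 0.91 ± 0.28 (0.0292). The calls of Per3 and Cry1 held whichever library was left out, while each of the other 5 was lost under more than 1 such omission. Leaving out double mutant library 2 left Per3 and Cry1 as the 2 calls, and so did leaving out Tet2-/- library 1. Leaving out double mutant library 3 left 4 (Per2, Per3, Cry1, Cry2), and leaving out Tet2-/- library 3 left 3 (Per3, Cry1, Nr1d2), while the share of all genes called also fell, to between 9.03% and 11.9%. The changes whose calls were lost stayed between 1.32 and 1.54 for Per2, 1.67 and 1.72 for Cry2, 1.40 and 1.59 for Nr1d2, 1.19 and 1.49 for Dbp, and 0.74 and 0.91 for Tef.

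Scaling and base composition bear on this comparison. Centring each library on its median gene moved the median of all tested genes by -0.47 and turned the calls over all genes to 2020 higher and 4039 lower, from 2806 higher and 1193 lower on the deposited scale. With median centring, and likewise with quantile normalization, 5 of the 10 genes were still called, all higher, and Dbp (1.01 with median centring) and Tef (0.44) were not. Changes over all genes followed the GC content of their transcripts (Spearman 0.27 over 13604 genes, as a description), and Dbp has the highest GC of the 10, 61.6% against a median of 49.2%. With a correction for GC and length, chosen after the data were seen, its change was 0.18 (limma adjusted p = 0.744) and the other 6 genes kept their calls. Per3 and Cry1 were called in all 27 alternatives. Camta1, whose span holds Per3, itself changed by 0.76 ± 0.23 (limma adjusted p = 0.025), a smaller change than that of Per3.

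**Figure D2:**
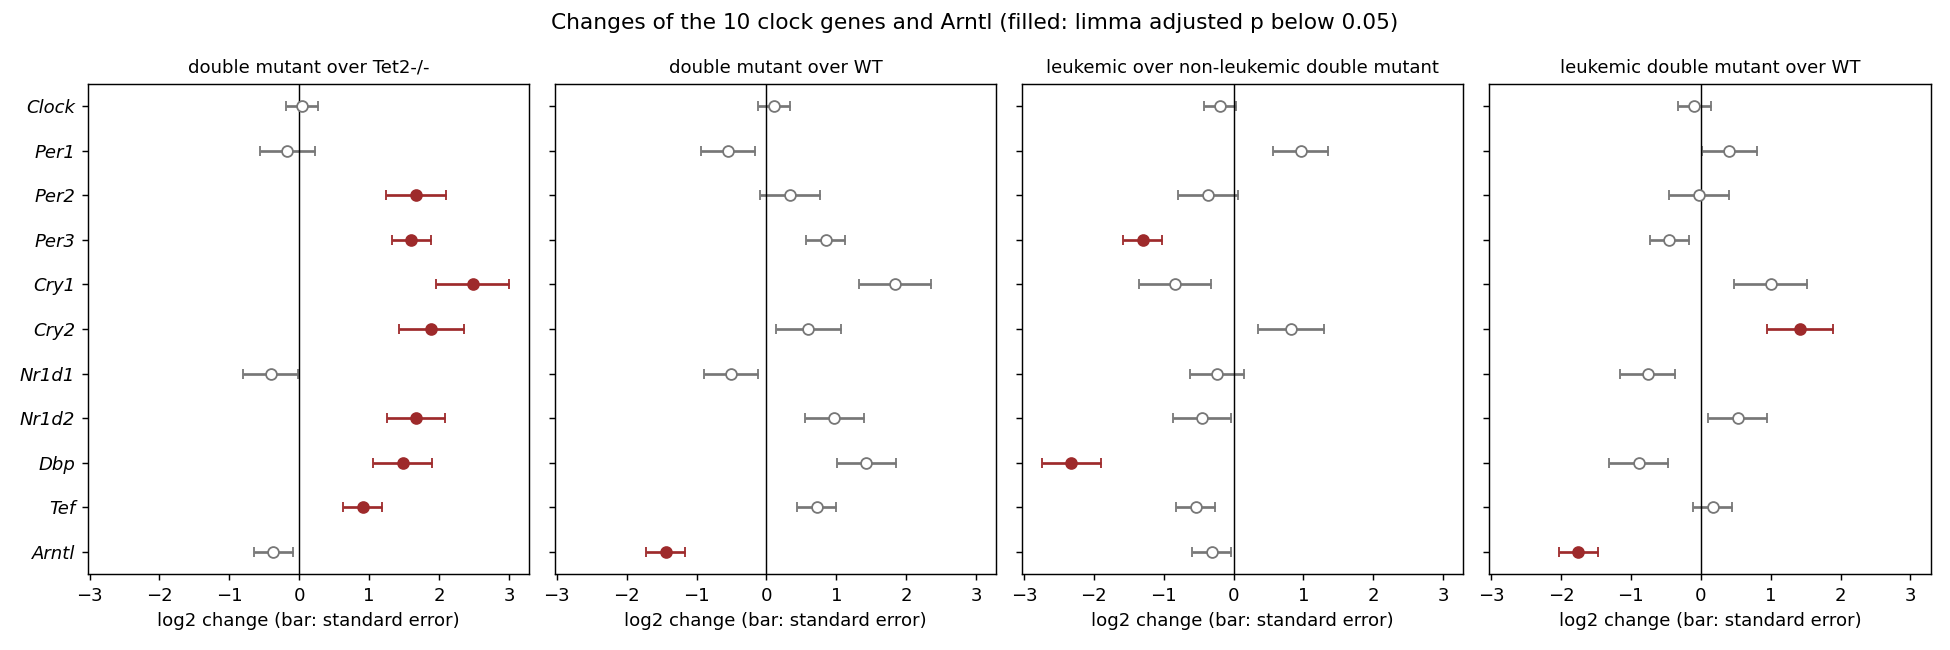
Log2 change (x axis, point with standard error) of the 10 genes and Arntl (y axis) in the comparisons named above each panel, filled where limma's adjusted p was below 0.05. Filled points to the right of 0 mark 7 genes for the double mutant over Tet2-/-, and filled points to the left mark Per3 and Dbp for leukemic over non-leukemic double mutant.

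Against WT, the 7 genes named above averaged higher in the double mutant, but 0 of the 10 were called by limma, where 0.682% of all tested genes were. At an unadjusted p below 0.05 there were 5 of 10, against 15.2% of all tested genes, and with voom and sample quality weights, which called 26.3% of all tested genes, the same count of 5 was called. Cry1 differed by 1.84 ± 0.52 (limma adjusted p = 0.1), Dbp by 1.43 ± 0.42 (0.111), Nr1d2 by 0.97 ± 0.42 (0.274), Per3 by 0.85 ± 0.28 (0.147) and Tef by 0.72 ± 0.28 (0.232). In the plot of log2 differences by library, double mutant libraries 2 and 3 carry these differences. Without double mutant library 1, which lay nearest to WT, Per3 (1.14), Cry1 (2.55) and Dbp (1.87) were called, together with 7.12% of all tested genes. Per3, Dbp and Tef were higher in every double mutant library than in every WT library, and Per1 and Nr1d1 lower in every one. Such separation was seen for 37.3% of all tested genes. Arntl fell by 1.44 ± 0.28 (limma adjusted p = 0.031), averaging 17.9 ± 1.99 CPM in the double mutant and 49.2 ± 11.1 CPM in WT (SD, n = 3); that call was lost without double mutant library 2 (-1.53) or 3 (-1.39) and without WT library 1 (-1.32) or 3 (-1.36).

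Tet2 loss alone placed 9 of the 10 genes lower than WT, with a median log2 change of -0.51 against -0.01 over all tested genes. By limma 0 of the 10 were called, and 0.23% of all tested genes were. With voom and sample quality weights 4 were called (Per2, Per3, Cry2, Nr1d2), together with 49.8% of all tested genes. Per2 averaged 11.2 ± 7.04 CPM in Tet2-/- and 25.1 ± 3.64 CPM in WT, a difference of -1.33 ± 0.43 (limma adjusted p = 0.118), Cry2 differed by -1.28 ± 0.47 (0.141) and Per3 by -0.75 ± 0.28 (0.145). These were the 3 genes at an unadjusted p below 0.05, a level reached by 23.7% of all tested genes. Per1, Per2, Per3 and Nr1d2 were lower in every Tet2-/- library than in every WT library, which held for 12.8% of all tested genes. Without Tet2-/- library 2, the highest of its group for Per2 and Cry2, those 2 genes were called, together with 16% of all tested genes. Median centring moved the median of all tested genes by 0.24 in this comparison, and no gene of the 10 was called under it. Changes over all genes ran against the GC content of their transcripts (Spearman -0.31 over 13604 genes, as a description). Of the 10, Clock (40.9%) and Nr1d2 (41.8%) lay below the median GC of 49.2%, and the others lay above it. With the GC and length correction 0 of the 10 were called. The part of GC content in these differences was not tested. Arntl differed by -1.07 (limma adjusted p = 0.108).

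Nras(G12D) alone gave 0 called genes among the 10 and 0% over all tested genes by limma; at an unadjusted p below 0.05 there were 0 of the 10 and 577 genes in all, or 4.14%. With voom and sample quality weights the count was also 0 of 10. Clock and Per1 were lower in every Nras(G12D) library than in every WT library, against 6.49% of all tested genes. The spread within the group was wide for several members: Cry2 averaged 24.5 ± 18.2 CPM in Nras(G12D) and 20 ± 7.57 CPM in WT, and Nr1d2 32.8 ± 19.6 CPM in Nras(G12D) and 22 ± 4.66 CPM in WT (SD, n = 3). In both genes Nras(G12D) library 2 lay far above the other 2 libraries of its group. The double mutant over Nras(G12D) likewise gave 0 of the 10 called, where 0.079% of all tested genes were, and 0 with voom and sample quality weights. Dbp differed by 1.15 ± 0.42 (limma adjusted p = 0.589) and Per3 by 0.72 ± 0.28 (0.6), the 2 genes at an unadjusted p below 0.05, against 7.41% of all tested genes.

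The interaction asks whether the double mutant departs from the sum of the single-mutant differences on the log2 scale. By limma 0 of the 10 genes were called and 0% of the 13927 tested genes, while 4 of the 10 and 21% of all had an unadjusted p below 0.05. The estimates were 1.96 ± 0.61 for Per2 (limma adjusted p = 0.143), 1.77 ± 0.67 for Cry2 (0.167), 1.58 ± 0.73 for Cry1 (0.234) and 1.46 ± 0.40 for Per3 (0.143). Of the 10 genes 9 had an interaction above 0, with a median of 1.22 against 0.09 over all tested genes. The interaction draws on the Tet2-/- and double mutant libraries already compared above, so this count is not a separate result. Over all genes the estimates followed GC content (Spearman 0.25, as a description). With voom and sample quality weights, 7 of the 10 were called, together with 42.5% of all tested genes. Without double mutant library 1, Per3 and Cry1 were called, together with 3.63% of all tested genes, and without Tet2-/- library 2, Per2 and Per3 were, together with 12.1%.

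In leukemic over non-leukemic double mutant, Per3 and Dbp fell. They were 2 of 10 genes called, both lower, against 24.3% of all tested genes called and 15.2% called lower. Dbp averaged 1.68 ± 0.742 CPM in the leukemic double mutant and 8.69 ± 3.93 CPM in the double mutant (SD, n = 3), a log2 change of -2.32 ± 0.42 or 4.99-fold lower (limma adjusted p = 0.00376). Per3 averaged 13 ± 3.61 CPM in the leukemic double mutant and 32.4 ± 9.96 CPM in the double mutant, a change of -1.30 ± 0.28 or 2.47-fold lower (limma adjusted p = 0.00705). Every leukemic library was below every double mutant library for both, a direction of full separation seen in 23.4% of all tested genes. The Dbp call held in all 27 alternatives (-2.76 to -1.72), the GC and length correction included. The Per3 call was lost when the 2 groups were fitted alone (adjusted p = 0.0579) and held in the other 26. The genes whose annotated spans overlap theirs did not pass: Camta1 differed by -0.03 ± 0.23, and Sphk2, the opposite-strand neighbour of Dbp, by -0.01 ± 0.30.

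Cry2 was placed the other way without being called, with every leukemic library above every double mutant library, as for 19.7% of all tested genes, and Per1 differed by 0.96 ± 0.39 (limma adjusted p = 0.083), its 3 leukemic libraries spanning 16.2 to 59 CPM. The Per1 difference ran from 0.20 with voom and sample quality weights to 1.42 without leukemic library 3, was 0.48 without leukemic library 1, and was called without leukemic library 3 and with quantile normalization (1.22). Against WT, Cry2 was the 1 gene of 10 called, where 24.7% of all tested genes were called and 10.8% called higher. It averaged 51 ± 7.71 CPM in the leukemic double mutant and 20 ± 7.57 CPM in WT (SD, n = 3), a rise of 1.42 ± 0.47 or 2.68-fold (limma adjusted p = 0.0412), and was higher in every leukemic library than in every WT library, as were 24% of all tested genes. That call sits near the threshold. It was lost with scaling by total counts (1.16), where Dbp was the 1 gene of 10 called. No filter on low genes (1.42) and the Y-linked covariate (1.30) also removed the Cry2 call. So did leaving out leukemic library 2 (1.30) or 3 (1.47), double mutant library 3 (1.42), or WT library 1 (1.06) or 3 (1.55). Arntl fell by 1.75 ± 0.28 in the leukemic double mutant against WT (limma adjusted p = 0.00204), averaging 14.5 ± 2.08 CPM in the leukemic double mutant, and kept its call in all 27 alternatives. All 4 erythroid markers were called higher in the leukemic libraries against both WT and the double mutant. Of the 8 LSK and stem cell markers 5 were called lower against WT and 3 lower against the double mutant. The 8 did not move as one: Ly6a averaged 123 CPM in the leukemic double mutant and 88.1 CPM in WT, and Slamf1 16.5 and 12.1 CPM. All 4 dendritic cell markers (Cd74, H2-Aa, Itgax, Cd209a) were called lower in leukemic over non-leukemic double mutant, with sums of 248 to 415 CPM in the leukemic libraries and 1401 to 2365 CPM in the double mutant. The part of these markers in the clock gene differences was not tested.

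**Figure D3:**
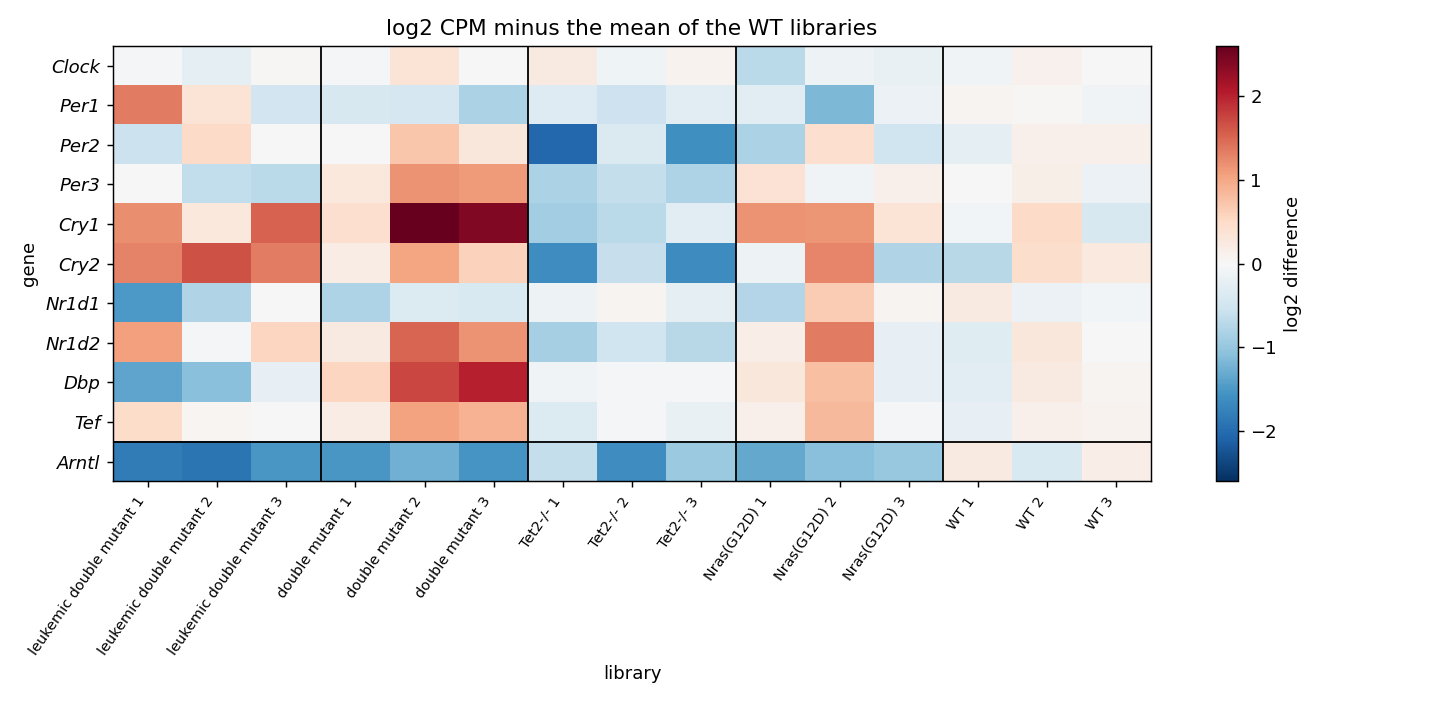
Log2 CPM of each gene (down the page) in each library (across, grouped by genotype) minus the mean of the WT libraries, red above and blue below, with Arntl under the line. Double mutant libraries 2 and 3 and Nras(G12D) library 2 are red for Per2, Cry1, Cry2, Nr1d2, Dbp and Tef, Tet2-/- is blue for the period genes, the cryptochromes and Nr1d2, and Arntl is blue in all 12 mutant libraries.

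The 10 genes did not vary as 1 block across the 15 libraries. On log2 CPM, as a description over libraries that share depth and group differences, the closest pair was Nr1d2 and Tef (Pearson r 0.94, and 0.95 for deviations from the group means). Cry1 went with Nr1d2 (0.90, and 0.74 for the deviations) and with Tef (0.84 and 0.65), and Per2 with Cry2 (0.81 and 0.81). Per3 and Dbp shared group differences more than library differences, with an r of 0.72 that dropped to 0.22 for the deviations. Per1 stood opposite to Dbp (-0.73, deviations -0.72) and to Nr1d1 (-0.70, deviations -0.84), all 3 being E-box targets in textbook accounts. Some of these genes also resembled many genes outside the clock: 882 of the other 13926 tested genes (6.33%) had an r above 0.9 with Cry2, 233 (1.67%) with Cry1 and 165 (1.18%) with Nr1d2, against 73 with Per2, 26 with Tef, 9 with Per3, 3 with Dbp and 0 with Clock, Per1 or Nr1d1. The named genes nearest to Cry2 were Mapkap1, Mta2 and Ash2l (each 0.99), those nearest to Cry1 were Slain2 (0.99), Crtap and Dtnb (0.98), and those nearest to Nr1d2 were Map2k5 (0.98), Suv420h1 and Acap2 (0.97). The genes nearest to Per3 were Grik5 and Slc22a17 (0.93) and the nearest to Dbp was Gtf2ird2 (0.94).

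Arntl encodes the partner of CLOCK, and its level was set beside those of Dbp and Nr1d1 in each library. Dbp lay 3.57, 3.21 and 2.73 log2 units below Arntl in the leukemic libraries, 1.95, 1.04 and 0.48 below in the double mutant, 3.50, 2.43 and 3.10 below in Tet2-/-, 2.42, 2.15 and 3.26 below in Nras(G12D) and 4.56, 3.40 and 4.13 below in WT. The 3 double mutant values were the nearest to Arntl of all 15. Nr1d1, the repressor of Arntl, lay 1.94, 1.15 and 0.74 below it in the leukemic libraries, 1.54, 1.36 and 1.13 in the double mutant, 1.79, 0.57 and 1.55 in Tet2-/-, 1.70, 0.50 and 1.22 in Nras(G12D) and 2.27, 2.02 and 2.51 in WT, so that WT was lowest without overlap and the mutant groups overlapped each other. As the same Arntl value enters every gene's difference, these are descriptions of levels and not separate results.

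**Figure D4:**
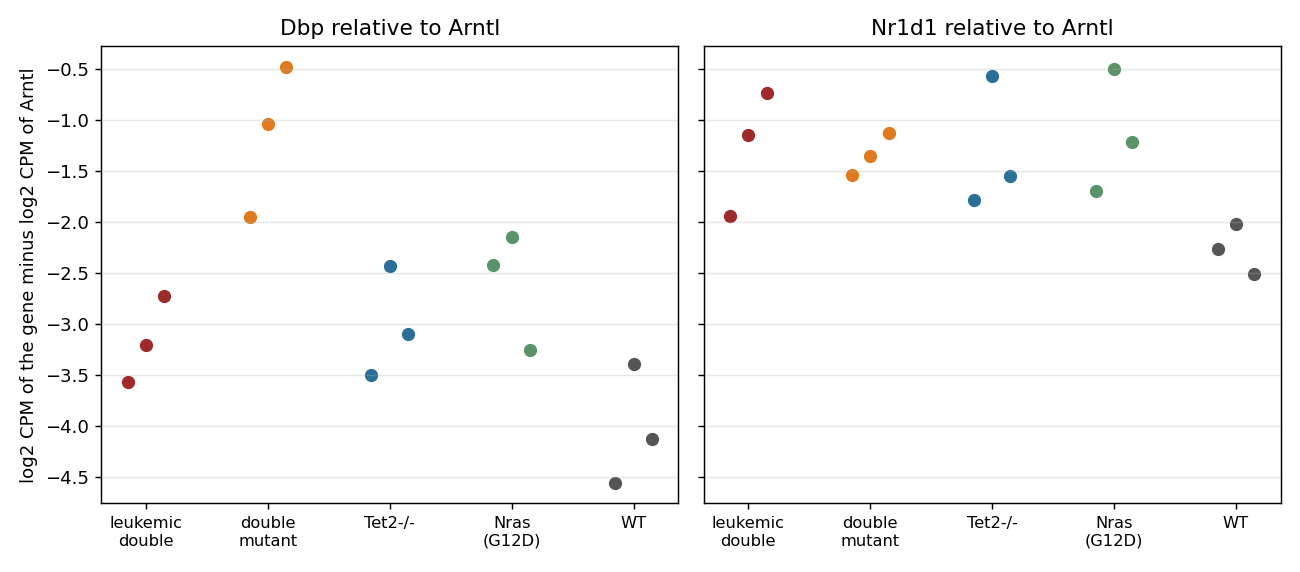
Log2 CPM of a clock gene minus log2 CPM of Arntl (y axis) in the 3 libraries of each group (x axis, 1 point per library). For Dbp the double mutant points, at -1.95 to -0.48, lie above those of every other group, and for Nr1d1 the WT points, at -2.51 to -2.02, lie lowest.

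Other genes of the pathway moved less uniformly. Of 11 further clock transcription factors 7 were tested, and 0 of them changed in the double mutant over Tet2-/-. Apart from Arntl the one called in any comparison was Hlf, another PAR bZIP factor that also marks stem cells. It fell by 3.63 ± 0.69 in the leukemic double mutant against WT (limma adjusted p = 0.00399) and by 3.40 against the double mutant (0.00557), with 34.7 ± 38.3 CPM in the leukemic double mutant, 203 ± 39.1 CPM in the double mutant and 236 ± 18.6 CPM in WT (SD, n = 3). Of 21 clock kinases, ubiquitin ligases and cofactors, 3 rose and 3 fell in the double mutant over Tet2-/-, a share near that of all tested genes. The 4 of smallest adjusted p were Fbxw11, a ligase of period proteins (1.71 ± 0.42, limma adjusted p = 0.0111), Wdr5 (1.35 ± 0.36, 0.015), the kinase Gsk3b (1.25 ± 0.35, 0.0188) and Nono, a partner of period proteins (-0.67 ± 0.19, 0.019). In leukemic over non-leukemic double mutant 3 of the 21 rose (Tipin, Timeless and Csnk2b) and Csnk1e, a kinase of period proteins, fell by 1.69 ± 0.46 (limma adjusted p = 0.0184), where 24.3% of all tested genes were called. Of 14 tested clock-controlled and glucocorticoid-responsive genes 1 rose in the double mutant over Tet2-/-, Wee1, a cell cycle kinase under E-box control, by 1.90 ± 0.49 (limma adjusted p = 0.0137). In the leukemic double mutant against WT, Noct rose by 1.73 ± 0.54 (limma adjusted p = 0.0321), and Nampt also rose (0.0101).

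Immediate early and CREB-responsive genes were listed because Per1 and Per2 can respond to the same signals. In the double mutant over Tet2-/-, 10 of 13 tested were called higher and 0 lower, with a median of 3.05. Of all tested genes 20.1% were called higher there. Over WT, 7 of the 13 were called higher (median 2.59), where 0.682% of all tested genes were called. Over Nras(G12D), 1 was called higher (median 2.43), where 0.079% of all were called. In the double mutant over WT or over Nras(G12D), 0 of the 10 clock genes were called. The summed level of the listed immediate early genes was 2256 to 4340 CPM in the double mutant, against 374 to 494 CPM in Tet2-/-, 390 to 485 CPM in Nras(G12D) and 233 to 408 CPM in WT. In leukemic over non-leukemic double mutant 7 of the 13 were called lower and 0 higher, where 15.2% of all tested genes were called lower. Summed levels were 451 to 1824 CPM in the leukemic libraries. Per1, a textbook immediate early gene of the clock, averaged 15.8 ± 2.44 CPM in the double mutant and 17.7 ± 1.78 CPM in Tet2-/- (SD, n = 3) and was not among the genes that rose. The part of this response in the clock gene differences was not tested. The 4 dendritic cell markers summed to 1401 to 2365 CPM in the double mutant and 933 to 3557 CPM in Tet2-/-, ranges that overlap, and 0 of the 4 were called between these groups. Of the 4 erythroid markers 2 were called higher in the double mutant over Tet2-/-, with sums of 40.8 to 153 CPM in the double mutant and 33.9 to 102 CPM in Tet2-/-. Of the 8 LSK and stem cell markers 1 was called lower, with sums of 2635 to 3268 CPM in the double mutant and 4207 to 5343 CPM in Tet2-/-. Of the 4 megakaryocyte markers (Pf4, Itga2b, Vwf, Gp9) 1 was called higher, with sums of 378 to 462 CPM in the double mutant and 121 to 223 CPM in Tet2-/-, which do not overlap. Of the 4 mast cell and basophil markers (Cpa3, Mcpt8, Prss34, Fcer1a) 1 was called higher, with sums of 87.6 to 195 CPM in the double mutant and 56.6 to 122 CPM in Tet2-/-. The part of these cell types in the clock gene differences was not tested.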

How the data were processed

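RNA sequencing of sorted LSK cells was measured in 15 libraries. The tools listed in the submitters' processing notes are limma 3.28.21, edgeR 3.14.0, STAR 2.4.0f1 and bcl2fastq. The notes also name NCBIM37 and mm10, without saying what each was used for. How reads were counted, with which annotation and whether by strand, is not given in the sources used here. The deposited values are log2 CPM with 0.5 added to each count and 1 to a library size that holds a scaling factor (0.813 to 1.12); under that formula 100% of the authors' values come back as whole counts within 1e-06. Printed CPM are those counts over the scaled library size. Columns were matched by each sample's description; N2-3 was taken as Nras(G12D) library 2 and BMT1 as leukemic library 1, and the other columns matched by name.

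Genes at 1 CPM or more in at least 3 libraries were tested on the deposited log2 values with limma 3.58.1 in R 4.3.3, a mean per group, an intensity trend and 10 residual degrees of freedom before moderation. Tests were two-sided, Benjamini-Hochberg adjusted within each comparison, and called below 0.05. A gene's change is printed where its unadjusted p was below 0.05 or where it is set beside such a change. Other clock genes are named by their smallest adjusted p, up to 4 per list. Some listed genes are not reported here, and the list counts and sums leave them out. The fit was tested on simulated data. The 10 genes and the lists were chosen with earlier results of these data known. Replicate numbers shared by groups were checked for pairing, and no clear pairing was seen. A batch shared by same-numbered libraries was not tested.

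The alternatives were scaling by total counts, quantile normalization, median centring, other added counts, other filters, a Y-linked covariate, a replicate block, voom with sample quality weights, fits of the compared groups alone, each library left out, and a correction for GC and length added after the data were seen.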

Additional observations from a re-analysis of the deposited data

How the results depend on the processing

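The 29 changes with an unadjusted p below 0.05, which involve Arntl and 8 of the 10 genes (not Clock or Nr1d1), kept their direction under all 27 alternatives; of their 783 alternative values 720 stayed on the same side of the threshold, 36 lost a call and 27 gained one. For the leukemic double mutant over WT, the count of 1 called gene became 0 with no filter on low genes, 0 with the Y-linked covariate, 3 with voom (Per3, Cry1, Cry2), which called 60.5% of all tested genes, 2 with the GC and length correction (Cry2, Dbp), and 0 to 1 with a library left out. For the double mutant over WT, the count of 0 became 5 with voom and 0 to 3 with a library left out. For Tet2-/- over WT, the count of 0 became 4 with voom, 0 to 2 with a library left out, and 2 (Per2, Cry2) with the replicate block, under which 713 genes in all were called. For the double mutant over Tet2-/-, the count of 7 became 2 to 7 with a library left out. For leukemic over non-leukemic double mutant, the count of 2 became 4 with voom, which called 56.7% of all tested genes, 1 with only the compared groups, and 2 to 3 with a library left out. For the interaction, the count of 0 became 7 with voom and 0 to 2 with a library left out. The counts of 0 for Nras(G12D) over WT and for the double mutant over Nras(G12D) held in all 27. The cause of these moves was not tested. The shared replicate numbers showed no clear pairing of the libraries. Over 30 same-numbered pairs the correlation of deviations ran from -0.346 to 0.294, and 7 of 15 libraries matched their own number best. The median was 0.0717 for same-numbered pairs and -0.0353 for other pairs across groups. Total-count scaling moved the median of all tested genes by -0.26 for the leukemic double mutant over WT and by -0.23 for leukemic over non-leukemic double mutant; calls over all genes were then 974 higher and 2789 lower, against 1505 higher and 1938 lower on the deposited scale, for the comparison with WT. For leukemic over non-leukemic double mutant the calls over all genes were 785 higher and 2919 lower with total counts, 1204 and 1285 with quantile normalization and 1735 and 1488 with median centring, against 1259 and 2123 on the deposited scale. Those for the double mutant over Tet2-/- were 2327 higher and 2746 lower with quantile normalization, and those for Tet2-/- over WT were 10 and 18 with total counts, 95 and 49 with quantile normalization and 60 and 29 with median centring, against 15 and 17. The 3 libraries of each group limit what could be called, and Dbp rests on as few as 33 counts.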
